A study of Macaca fascicularis with 2 samples.

Results

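The 10 genes described here are SYCP1, SYCP2, SYCP3, SYCE1, SYCE2, SYCE3, TEX12, C14orf39, HORMAD1 and HORMAD2, which encode parts of the synaptonemal complex or bind its axes. They were taken by name from the 18446 genes of a table of unique molecular identifier (UMI) counts per cell, and all 10 were found in it. The cells came from whole fetal ovaries of 2 female Macaca fascicularis, 1 fetus of embryonic day 84 (E84) and 1 of E116, with both ovaries of a fetus digested together into 1 suspension and 1 droplet library made of each. The table joins the 2 libraries, and its barcodes end in 1 (10621 cells) or 2 (10346 cells) with nothing in it that says which ending is which fetus. The 20967 cells were pooled for that reason, differences between stages are not reported, and the endings are treated as batches without a name. With 1 library of each stage there is no replicate, so no test was made and every interval covers counting error only.

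The synaptonemal complex is the protein zipper that holds homologous chromosomes together in the prophase of the first meiotic division. In female mammals germ cells enter that prophase in the fetal ovary and arrest at its end as oocytes. SYCP2 and SYCP3 build the chromosome axes, HORMAD1 and HORMAD2 load on axes that are not yet joined and are removed as they join, and SYCP1 forms the transverse filaments between the axes. SYCE1, SYCE2, SYCE3, TEX12 and C14orf39 (also called SIX6OS1) make the central element, where filaments from both sides meet. The files given hold no sequence of these genes for the genome build used, so none is printed.

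Cells were sorted into groups by UMIs of marker genes, none of which is among the 10. A cell class needed at least 3 UMIs from at least 2 genes of its list. Germ cells were parted by at least 2 UMIs of a step list into 189 mitotic cells (NANOG, TFAP2C, SOX17, SOX15, LIN28A), 565 premeiotic cells (ZGLP1, STRA8, REC8), 772 prophase cells (MEIOB, SPO11, DMC1, INCA1, PRDM9) and 304 oocytes (GDF9, ASTL, ZAR1, NOBOX, OOSP2). The prophase cells were divided by FIGLA, a transcription factor of oocyte genes, into 544 with no FIGLA UMI and 228 with at least 1. The 8171 somatic cells fell into granulosa, stroma, surface epithelium, endothelial, RGS5-led, macrophage, lymphocyte and erythroid groups. Cells with markers of several classes (3117), with no class (7048) or germ cells with too few step UMIs (734) were left out of the groups.

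The groups differed in depth and in batch. Median depth was 12590 UMIs in mitotic, 13098 in premeiotic and 16264 in oocyte cells, 5350 in prophase cells without FIGLA and 15437.5 in those with it. Of the mitotic cells 180 of 189 had barcodes ending in 1, and of the oocytes 291 of 304 had barcodes ending in 2, so these steps and the endings cannot be told apart. The endings shared 27 barcodes. The summed level of the 10 germ marker genes was 625 to 1934 CPM (UMIs of a gene scaled to 1e+06 UMIs of its group) in the 5 germ cell steps and 32.9 to 90.8 CPM in the 8 somatic groups. The oocyte group held the macrophage gene CSF1R at 352 CPM, while the whole list of 6 macrophage genes summed to 353 CPM there, and EGFL7 of the endothelial list was at 63.1 to 174 CPM in the 5 germ cell steps. FOXL2 was low in the granulosa gate (5.63 CPM), which also held the stroma gene DCN at 1006 CPM and RGS5 at 603 CPM. The RGS5-led group held RGS5 at 1648 CPM and the granulosa gene AMHR2 at 165 CPM, and was not given a cell type name.

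All 10 genes were highest in prophase cells. Levels in CPM are compared over groups for each gene and not between genes. A gene was called higher or lower where the ratio of 2 groups, with 10 CPM added to both, was at least 2 or at most 0.5, among genes with at least 10 CPM in 1 of the 2. From the mitotic to the premeiotic step 7 of 8 testable genes were higher and none lower, against 5.91% and 4.98% of 8633 genes called higher and lower. From the premeiotic step to prophase without FIGLA 9 of 10 were higher and none lower, against 6.68% and 3.94% of 8609 genes. In oocytes all 10 were lower than in prophase without FIGLA, against 16.6% of 8947 genes (12.9% were higher). The median log2 ratio of all 10 genes, testable or not, was 1.34, 2.81 and −3.04 in these 3 contrasts, and that of all genes tested was 0.17, 0.00 and −0.15.

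**Figure D1:**
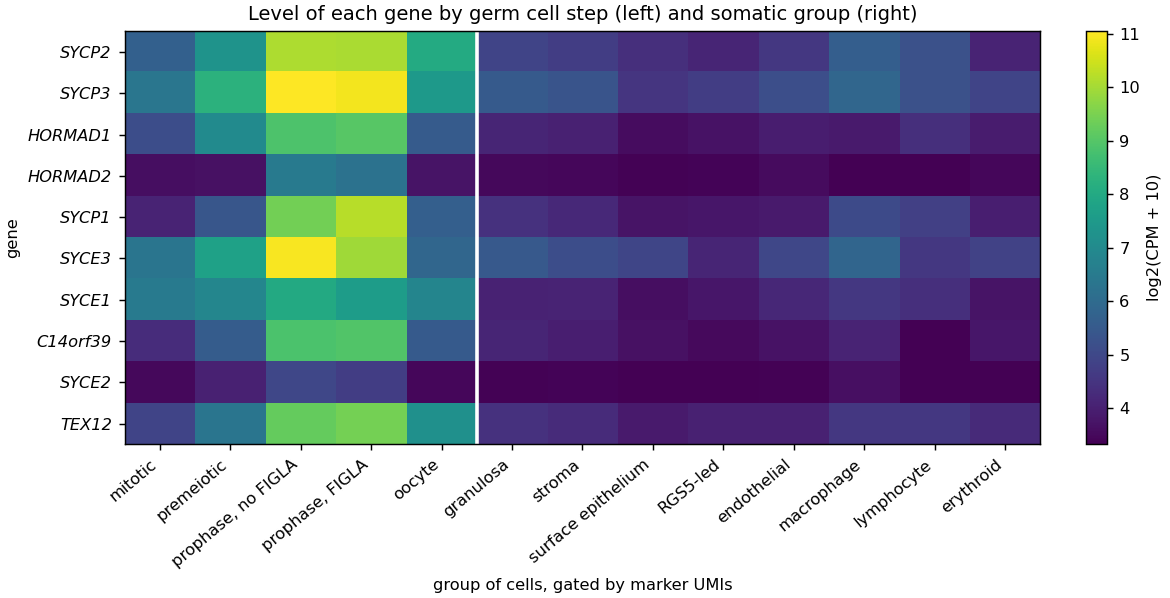
Level of each of the 10 genes (rows) in the 5 germ cell steps (left of the white line) and the 8 somatic groups (right), as log2 of CPM with 10 added. The brightest cells are those of both prophase steps, and every somatic group is dark.

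The axis genes were higher in premeiotic than in mitotic cells, and higher again in prophase. SYCP3, the core component of the lateral elements, was at 72.1 CPM (95% interval 62.3–83.1) in mitotic cells, 301 CPM (289–313) in premeiotic cells, 2100 CPM (2058–2142) in prophase without FIGLA, 1897 CPM (1852–1942) in prophase with FIGLA and 170 CPM (161–178) in oocytes. With both endings pooled, no 2 of these intervals overlapped. SYCP2, its partner in the axis, was at 41.3 CPM in mitotic, 146 CPM in premeiotic, 1086 CPM (1056–1117) and 1067 CPM (1034–1101) in prophase without and with FIGLA and 255 CPM (244–265) in oocytes. The prophase levels of SYCP2 were the same within counting error only with both endings pooled. With FIGLA its level was 1.38 times (1.30–1.47) that without in ending 1 and 0.72 times (0.67–0.76) in ending 2. With both endings pooled, oocytes were at 23.4% of the level of prophase without FIGLA for SYCP2 and at 8.08% for SYCP3. Within ending 2 they were at 0.19 times (0.18–0.20) that level for SYCP2 and 0.062 times (0.058–0.066) for SYCP3.

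The HORMA domain genes parted early on. HORMAD1, which marks axes before synapsis and takes part in meiotic break formation, was at 25.2 CPM (19.5–32.0) in mitotic, 119 CPM (111–126) in premeiotic, 460 CPM (440–480) and 515 CPM (492–538) in the prophase steps and 36.2 CPM (32.4–40.3) in oocytes. HORMAD2, which acts in the surveillance of unsynapsed axes, was at 2.25 CPM (0.83–4.90) in mitotic and 2.71 CPM (1.72–4.07) in premeiotic cells, from 6 and 23 UMIs. In prophase HORMAD2 was at 78.5 CPM (70.5–87.1) without and 65.8 CPM (57.7–74.6) with FIGLA, and in oocytes at 3.21 CPM (2.17–4.59). In premeiotic cells HORMAD1 was thus at 23.0% of its highest level and HORMAD2 at 3.46%. The mitotic, premeiotic and oocyte levels of HORMAD2 could not be told apart at this depth.

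SYCP1, the transverse filament gene, was at 7.14 CPM (4.30–11.1) in mitotic cells, from 19 UMIs, 31.5 CPM (27.8–35.5) in premeiotic cells, 670 CPM (646–694) in prophase without FIGLA and 1166 CPM (1132–1202) with FIGLA. Its premeiotic level was 2.70% of the peak, close to the percentage of HORMAD2. In oocytes SYCP1 was at 40.4 CPM (36.4–44.7), 3.46% of the peak. That was 1.28 times (1.09–1.51) the premeiotic level with both endings pooled, but 0.77 times (0.64–0.93) within ending 2, which holds most oocytes.

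SYCE3, a central element gene, was far lower in oocytes than in prophase, as were several others of the 10. This small protein, needed for loading the rest of the central element, had 70.2 CPM (60.5–81.1) in mitotic, 204 CPM (195–214) in premeiotic, 1982 CPM (1941–2023) and 964 CPM (933–997) in the prophase steps and 48.0 CPM (43.6–52.6) in oocytes. Its oocyte level was 2.42% of its peak with both endings pooled. Within ending 2 it was 0.031 times (0.028–0.035) the level of prophase without FIGLA, beside 0.029 times (0.019–0.044) for HORMAD2. In the same comparison SYCP1 was at 0.036 times (0.032–0.040) and SYCE2 at 0.034 times (0.015–0.069), from 10 UMIs in oocytes. The central element genes C14orf39 (0.068), TEX12 (0.17) and SYCE1 (0.46) were less far down. C14orf39, which binds SYCE1, was at 9.76 CPM in mitotic, 37.8 CPM in premeiotic, 457 CPM (438–477) and 480 CPM (458–503) in prophase and 35.9 CPM (32.1–39.9) in oocytes. The oocyte and the premeiotic interval of C14orf39 (33.7–42.1) overlapped, as did those of both prophase steps.

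TEX12, which assembles with SYCE2 into fibres along the central element, was at 20.3 CPM in mitotic, 70.0 CPM (64.4–75.8) in premeiotic, 587 CPM (564–609) and 678 CPM (651–705) in prophase and 137 CPM (130–145) in oocytes. Its oocyte level was 1.96 times (1.78–2.17) that of premeiotic cells with both endings pooled and 1.16 times (1.04–1.31) within ending 2. SYCE2 was sparsely counted, with 355 UMIs in the whole table. It was at 1.13 CPM (0.23–3.29) in mitotic cells from 3 UMIs, 6.37 CPM (4.79–8.31) in premeiotic, 21.3 CPM (17.2–26.0) and 16.4 CPM (12.5–21.2) in prophase and 1.07 CPM (0.51–1.97) in oocytes from 10 UMIs. SYCE2 was the 1 gene not called higher in prophase without FIGLA than in premeiotic cells, with a ratio of 1.91 after 10 CPM was added and 3.34 (2.37–4.75) without.

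SYCE1 was the flattest of the 10 genes over the germ cell steps. It was at 81.5 CPM (71.0–93.1) in mitotic, 107 CPM (100.2–114) in premeiotic, 248 CPM (234–263) and 181 CPM (168–195) in prophase and 103 CPM (96.6–110) in oocytes. Its highest step was 3.05 times its lowest, against 19.9 to 163 times for the other 9 genes. SYCE1 was also the testable gene not called higher in premeiotic than in mitotic cells (ratio 1.28 with 10 CPM added). With both endings pooled it kept 41.5% of its peak in oocytes, and its premeiotic and oocyte intervals overlapped.

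**Figure D2:**
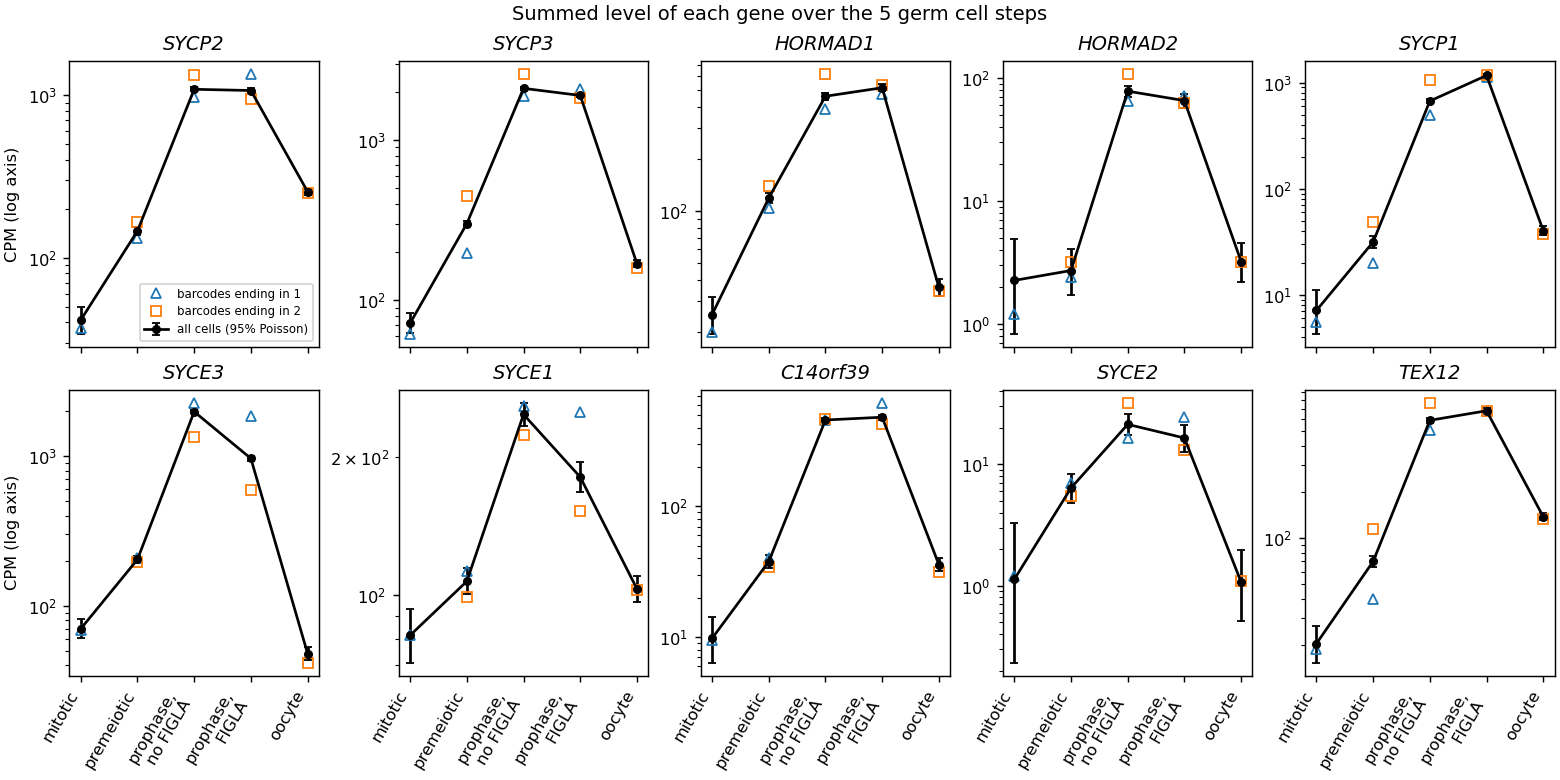
Level of each gene in CPM (log axis, own range in each panel) over the 5 germ cell steps, with 95% Poisson intervals in black and the values of barcodes ending in 1 (triangles) and 2 (squares) where an ending had at least 50 cells. Every gene peaks in 1 of the 2 prophase steps, and SYCE1 spans the narrowest range.

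The oocyte levels were set beside the premeiotic ones, the step before prophase. Oocytes were mostly of ending 2 and premeiotic cells mostly of ending 1 (384 of 565). With the endings pooled SYCE3 and HORMAD1 were lower in oocytes (ratios with 10 CPM added 0.27 and 0.36), which is 2 of 8 testable genes against 11.6% of 8890 genes, and none was higher, against 10.8%. Within ending 2, a comparison added after the data were seen, SYCP3 (0.37), SYCE3 (0.25) and HORMAD1 (0.30) were lower, 3 of 8 testable genes against 12.2% of 8837 genes, and none was higher. The pooled ratios of SYCP2 (1.70) and TEX12 (1.84) were 1.48 and 1.15 within ending 2. C14orf39 and SYCE1 lay near 1 both ways.

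Within the barcode endings most of this held where cells allowed a comparison. From premeiotic cells to prophase without FIGLA 9 of 10 genes were called higher among barcodes ending in 1, against 6.61% of 8521 genes, and 10 of 10 among those ending in 2, against 9.35% of 8609 genes. In oocytes against prophase 10 of 10 were called lower among barcodes ending in 2, against 18.4% of 8903 genes, and ending 1 had too few oocytes. From mitotic to premeiotic cells 5 of 8 were called higher among barcodes ending in 1, against 6.02% of 8522 genes, SYCP1 and TEX12 falling short there, and ending 2 had too few mitotic cells. The levels themselves differed by ending, as in prophase without FIGLA, where SYCP1 was at 499 CPM in ending 1 and 1046 CPM in ending 2 and SYCE3 at 2271 and 1342 CPM. HORMAD1 was at 388 and 617 CPM, HORMAD2 at 65.1 and 108 CPM, and C14orf39 was nearly level at 454 and 465 CPM. SYCE2 was at 16.4 CPM (12.2–21.6) and 32.0 CPM (23.4–42.9), from 51 and 45 UMIs. SYCE3 thus had the higher level in ending 1 and SYCP1, SYCP2, SYCP3, SYCE2, TEX12, HORMAD1 and HORMAD2 in ending 2.

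With both endings pooled, most of the 10 genes had similar levels in prophase cells with and without FIGLA. None was called higher and SYCE3 was called lower (ratio 0.49 with 10 CPM added), against 1.17% and 0.402% of 8450 genes called higher and lower. SYCP1 had the highest ratio of the 10 at 1.74 (1.66–1.82). With 10 CPM added the other 8 genes had ratios between 0.74 (SYCE1) and 1.15 (TEX12). SYCP1 was higher and SYCE3 lower in both endings, with SYCP1 at 2.28 times (2.11–2.46) in ending 1 and 1.13 times (1.06–1.20) in ending 2, and SYCE3 at 0.82 (0.78–0.86) and 0.45 (0.42–0.48). Among cells over 3000 genes alone, a comparison chosen after the data were seen, SYCP1 had 1.73 times and SYCE3 0.55 times the level of cells without FIGLA. The call of SYCE3 held in ending 2 only, and in ending 1 SYCP1 was past 2-fold instead. SYCE1 was at 0.97 (0.84–1.11) in ending 1 and 0.68 (0.58–0.79) in ending 2. SYCP2, SYCP3, TEX12 and HORMAD1 were higher with FIGLA in ending 1 and lower in ending 2, with intervals that leave out 1 in both. C14orf39 left it out in ending 1 only, and SYCE2 and HORMAD2, below 1 in ending 2, included it in ending 1. The endings were unequally mixed, with 433 of 544 cells without FIGLA and 95 of 228 with it in ending 1. SYCP2 was 1.38 times (1.30–1.47) as high with FIGLA in ending 1 and 0.72 times (0.67–0.76) in ending 2, and SYCP3 1.11 times (1.05–1.16) and 0.71 times (0.68–0.74).

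Binned by FIGLA UMIs, with bins also chosen after the data were seen, SYCE3 was lower with each bin in both endings. At 0, 1 to 2 and 3 or more FIGLA UMIs it was at 2271, 2036 and 1449 CPM in ending 1 and at 1342, 1054 and 351 CPM in ending 2. SYCP1 instead had 1046, 1427 and 1043 CPM in ending 2, highest in the middle bin. In ending 1 it had 499, 1173 and 1061 CPM, and there the middle (1096–1253) and the last interval (952–1178, from 24 cells) overlapped. In ending 2 the level at 3 or more FIGLA UMIs was thus back at that of cells without FIGLA. SYCP3 in ending 2 went from 2577 to 2476 to 1463 CPM. Depth moved with FIGLA, from a median of 5350 to 11399 to 21901.5 UMIs over both endings. Depth also moved with SYCE3 among prophase cells without FIGLA, where it was at 2840 CPM in the 342 cells of up to 3000 genes and 1646 CPM in the 202 cells above that number. That split pooled the endings, which also differed in depth among cells without FIGLA (median 4691 UMIs in ending 1 and 10983 in ending 2). It therefore cannot part depth from ending. The part of depth in these differences was not tested.

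**Figure D3:**
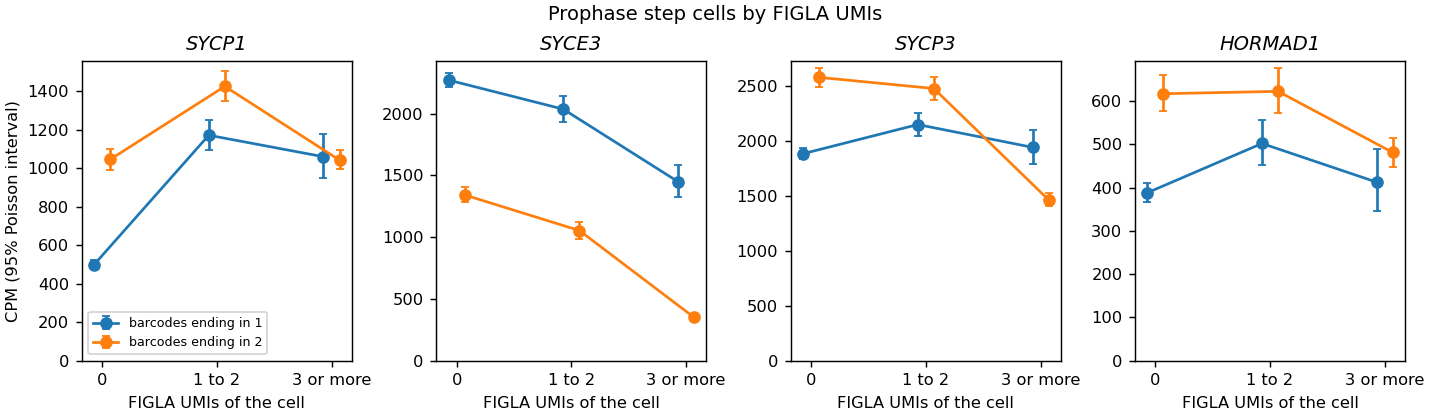
Levels in CPM with 95% Poisson intervals of SYCP1, SYCE3, SYCP3 and HORMAD1 in prophase cells with 0, 1 to 2 and 3 or more FIGLA UMIs, for barcodes ending in 1 (blue) and 2 (orange). SYCE3 is lower in each next bin of both endings, and SYCP1 is highest in the middle bin of ending 2, while the middle and last intervals of ending 1 overlap.

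The genes were also counted cell by cell, after each cell was thinned to 1000 UMIs so that depth was equal. Cells under 1000 UMIs were left out of this count, namely 226 somatic cells, 6 prophase cells without FIGLA and 1 oocyte. In prophase cells without FIGLA at least 5 of the 10 genes had a UMI in 40.9% of 538 cells (36.7–45.2%), and in those with FIGLA in 36.0% of 228 cells (29.7–42.6%). These pooled shares hide opposite differences in the endings. In ending 1 the share was 38.8% (34.2–43.6%) without and 51.6% (41.1–62.0%) with FIGLA. In ending 2 it was 49.1% (39.3–58.9%) without and 24.8% (17.7–33.0%) with FIGLA. Over both endings the share with at least 5 genes was 0.18% of 565 premeiotic cells and 0% of 189 mitotic cells and of 303 oocytes, which allows up to 1.93% and 1.21%. It was 0.13% of 7945 somatic cells, which stand as the comparison group without meiosis. None of the 10 genes had a UMI in 74.6% of mitotic, 41.6% of premeiotic, 3.72% and 2.19% of the prophase and 43.9% of oocyte cells, against 88.1% of somatic cells. By ending, that somatic share was 83.6% (82.4–84.8%) in ending 1, which held most mitotic cells. It was 92.0% (91.2–92.8%) in ending 2, which held most oocytes. At full depth the share with at least 5 genes was 11.1% in mitotic, 52.6% in premeiotic, 89.7% and 98.7% in prophase, 57.2% in oocyte and 1.05% in somatic cells.

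The single genes differed in how far the other steps stood above somatic cells. SYCP3 had a UMI in 80.9% of prophase cells without FIGLA, 23.9% of premeiotic cells, 17.5% of oocytes, 5.29% of mitotic cells and 3.95% of somatic cells. SYCE3 had one in 74.7%, 19.8%, 8.58%, 9.52% and 3.57% of the same groups, and SYCP1 in 40.3%, 2.83%, 6.27%, 1.06% and 1.06%. The mitotic shares of SYCP3 (interval 2.57–9.51%) and SYCP1 (0.13–3.77%) were not distinguishable from the pooled somatic ones at this depth. These somatic shares join both endings, while mitotic cells and oocytes were each mostly of a single ending. The shares of single genes were not set beside somatic cells of the same ending. HORMAD2 had one in 7.62% of prophase cells without FIGLA and in 0% of premeiotic cells, which allows up to 0.65%.

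**Figure D4:**
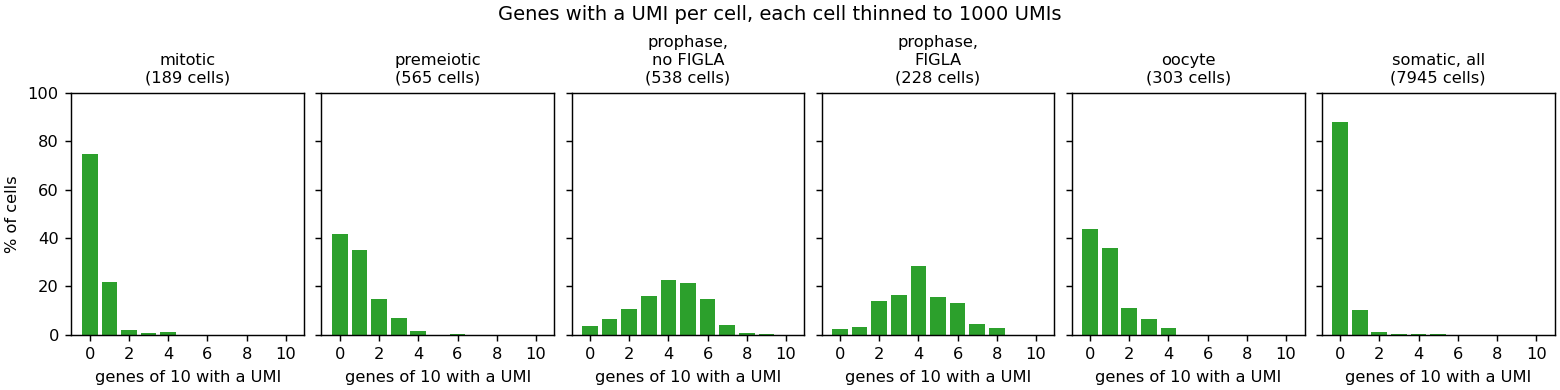
Share of cells (%) by the number of the 10 genes with a UMI, each cell thinned to 1000 UMIs, in the 5 germ cell steps and in all somatic cells. Cells under 1000 UMIs are left out. Prophase cells centre on 4 genes, while most mitotic and somatic cells have 0.

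In somatic cells all 10 genes were low. Their highest germ cell step was above their highest somatic group at least 2-fold for 10 of 10 genes, against 19.2% of 11972 genes, with a median log2 ratio of 4.75 against 0.00 for all genes. Over all somatic cells SYCP3 was at 28.3 CPM (26.9–29.8), SYCE3 at 25.7 CPM (24.4–27.1), SYCP2 at 15.9 CPM (14.8–17.0), TEX12 at 9.22 CPM and SYCP1 at 8.37 CPM. The others were at 6.27 CPM (SYCE1), 5.95 CPM (HORMAD1), 5.39 CPM (C14orf39), 0.93 CPM (HORMAD2) and 0.35 CPM (SYCE2). Macrophages were the highest somatic group for 7 of the 10 genes, with few counts behind it, such as 21 UMIs for SYCP3 (49.1 CPM) and 1 UMI for SYCE2. In granulosa cells SYCP3 was at 35.1 CPM (32.0–38.5) and in stroma at 29.8 CPM (27.8–32.0). Dividing cells, those with MKI67, TOP2A and like genes, had SYCP3 at 37.3 CPM (30.4–45.2) in granulosa and 41.4 CPM (35.9–47.6) in stroma.

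The somatic levels moved with the barcode ending. The 10 genes together were at 188 CPM (182–194) in somatic cells of ending 1 and 59.6 CPM (57.1–62.3) in those of ending 2. Mitotic cells, nearly all of ending 1, were therefore set beside somatic cells of that ending. SYCE1 was at 81.8 CPM (71.0–93.8) in the mitotic and 10.1 CPM (8.72–11.6) in the somatic cells, and HORMAD1 at 20.0 CPM (14.8–26.3) and 10.1 CPM (8.72–11.6). SYCP3 was at 61.9 CPM (52.5–72.4) and 48.4 CPM (45.4–51.6), SYCE3 at 68.6 CPM (58.8–79.7) and 52.8 CPM (49.7–56.2) and SYCP2 at 37.1 CPM (30.0–45.5) and 26.1 CPM (23.9–28.5), so their intervals were narrowly apart. SYCP1 was lower in the mitotic cells, at 5.59 CPM (3.05–9.37) against 12.97 CPM (11.4–14.7), and the intervals of TEX12, C14orf39, SYCE2 and HORMAD2 overlapped. Each gene's share of the summed UMIs of the 10 genes was close in germ and somatic cells of ending 1, where all 10 pairs of intervals overlapped. SYCE3 made up 27.7% of them in germ and 28.2% in somatic cells there, and SYCP3 25.0% and 25.8%. In ending 2, 5 of 10 pairs overlapped, and the others were SYCP1, SYCE1, SYCE3, C14orf39 and HORMAD1. No like count was made for other genes, so whether either count is unusual is not known. There SYCE3 made up 11.1% in germ and 16.9% in somatic cells, and SYCP1 12.6% and 9.58%. The part of free RNA or of cells captured together in these somatic counts was not tested.

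**Figure D5:**
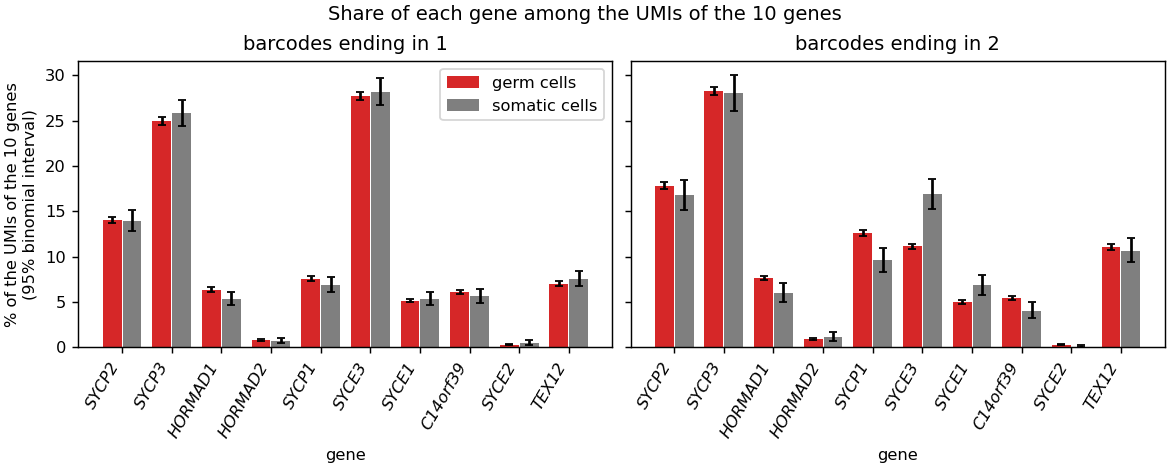
Share (%) of each gene among the UMIs of the 10 genes in germ cells (red) and somatic cells (grey), by barcode ending, with exact 95% binomial intervals. The bars pair up in ending 1, while in ending 2 SYCE3 has a larger share in somatic than in germ cells.

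Most UMIs of the 10 genes lay in gated germ cells, 70.0% of 120634, with 28.7% in prophase cells without FIGLA and 21.3% in those with it. Cells of several classes held 13.9%, cells with no class 11.4% and somatic cells 4.74%. Gated germ cells held from 65.5% (SYCE3) to 75.0% (SYCP1) of a gene's UMIs.

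Over the 13 groups the genes followed each other on the scale of log2(CPM + 10). The correlation of each with the mean of the other 9 ran from 0.90 (SYCE1) to 0.996 (SYCP3), a description over groups that share libraries, free RNA and depth. Outside the 10, the genes nearest to their mean were FAM3B (r = 0.99), LY6K (0.99), ASZ1 (0.99), TMEM116 (0.99), BOLL (0.99), ANKRD62 (0.99), XK (0.99), ZCWPW2 (0.98), ENSMFAG00000032346 (0.98) and KIF18A (0.98). ASZ1, a germ cell protein of transposon silencing, was at 5.26, 19.8, 139, 130 and 15.3 CPM in the 5 steps in order, and BOLL, an RNA-binding protein of the DAZ family, at 1.88, 11.8, 48.6, 51.2 and 8.14 CPM.

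Other genes of meiotic chromosomes were read from 31 genes in 5 lists. In prophase without FIGLA over premeiotic cells 21 of 30 testable genes were called higher and none lower, against 6.68% and 3.94% of all genes tested. Of meiotic cohesin genes, 2 of 3 were higher, RAD21L1 having the largest ratio (3.80) and STAG3 the smallest (1.30). SMC1B, the meiotic cohesin ring subunit, was at 141, 824, 2087, 1486 and 80.0 CPM in the 5 steps. Of the partners and the remover of HORMAD proteins, 4 of 6 were higher, from CCDC36 (4.14) to REC114 (1.69). TRIP13, the ATPase that takes HORMAD proteins off joined axes, was at 37.2, 79.6, 170, 116 and 35.8 CPM.

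Of the genes that tie telomeres to the nuclear envelope, 5 of 6 were higher, with SPDYA (15.8) the largest and SUN1 (1.51) the smallest ratio. SPDYA, the activator of the telomere-bound kinase CDK2, was at 19.1 CPM in premeiotic and 451 CPM in prophase cells without FIGLA. Of a list made up mainly of meiotic recombination genes, 8 of 13 were higher, from CNTD1 (10.5), a crossover cyclin, to PSMC3IP (1.24). The last list held MEIOC (4.36) and BRDT (2.42), and both were higher. BRDT was at 40.9, 82.8, 215, 365 and 327 CPM in the 5 steps. With FIGLA against without, none of the 30 was called in either direction. Of all 8450 genes tested, 1.17% were called higher and 0.402% lower, so few calls would fall among 30 genes at these shares. In oocytes against prophase without FIGLA 25 of 31 were lower and none higher, against 16.6% and 12.9% of all genes tested, and the largest ratio was that of MEI4 (1.71).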

How the data were processed

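RNA was measured in single cells of ovaries of 2 fetuses by the 10x Genomics 3' assay, in 1 library for each. The deposited table holds raw UMI counts. Per the submitters' processing notes the authors used Cell Ranger 3.0.2 and Seurat, and their methods name the build Macaca_fascicularis_5.0. The table has 148824177 UMIs, a median of 3756 UMIs in each cell and no cell under 200 genes. The authors set an upper limit of 3000 genes for their own analysis, but 4675 cells above it are in the table and were kept. A 3' count gives the number of transcript ends, without length.

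Cells were gated by the marker lists (57 class genes), and groups of at least 50 cells kept. A cell called for several classes went to the leading one only if each other had at most 0.25 of its UMIs. That rule is how doublets were treated, since no caller was run and no free RNA removed. Counts were summed over a group, with exact Poisson intervals for CPM, exact conditional intervals for ratios and exact binomial (Clopper-Pearson) intervals for shares, all at 95%. A count of 0 limits a share by the upper bound of that interval. Ratios had 10 CPM added.

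The genes named are the 10 genes, the 10 with the most similar pattern among genes of at least 50 CPM in a group, and the largest and smallest ratio of each meiotic list, besides genes singled out after their values were seen (SMC1B, TRIP13, MEI4). The 10 genes and all lists were chosen with earlier results of these data known. Python 3.11.15, numpy 2.4.6, scipy 1.17.1 and matplotlib 3.10.9 were used. The calls and the intervals of ratios were checked on simulated Poisson counts, which hold no spread between cells or libraries. The intervals of CPM and of shares were not checked in this way.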

Additional observations from a re-analysis of the deposited data

Results flagged for a closer look

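Cells outside the groups compared also held UMIs of the 10 genes, above the 106 CPM summed over the 10 genes in somatic cells. Cells with no class call were at 1057 CPM (1039–1075), and 5.15% of these 7048 cells had at least 5 of the 10 genes at full depth, although their median depth was 1290 UMIs. Their level was 1796 CPM among barcodes ending in 1 and 465 CPM among those ending in 2. Cells called for several classes were at 335.8 CPM (330.8–341), and 861 of these 3117 cells had a germ cell call. Germ cells with too few step UMIs were at 2063 CPM (2009–2118), close in both endings (2050 and 2101 CPM), and 27.0% of them had at least 5 genes. Prophase cells without FIGLA were at 7688 CPM on the same scale.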

How the results depend on the processing

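Of 270 ratios of single genes under 10 alternatives 189 moved by less than their counting interval, 81 by more, and no called ratio changed direction. The 3-fold alternative changed only the call, so its ratios could not move and are counted among the 189. HORMAD2, at 6 and 23 UMIs in mitotic and premeiotic cells, had the other sign when cells were thinned to 1000 UMIs. With a 3-fold ratio asked for, 3 of 8 genes in place of 7 were called higher in premeiotic than in mitotic cells. The median level of the 10 genes in prophase cells without FIGLA was 523 CPM, and 598 CPM in cells of up to 3000 genes, 476 CPM for ending 1 and 690 CPM for ending 2. The share of these cells with at least 5 genes was 40.9%, and 73.4% with cells thinned to 2000 UMIs, 89.7% with no thinning and 49.1% in barcodes ending in 2. Over all genes, the 510 called higher in premeiotic cells became 1070 with 1 CPM added, 1217 after thinning and 77 at 3-fold. The 575 called higher in prophase became 1035 with 1 CPM added and 144 at 3-fold. The 1484 called lower in oocytes became 2243 with 1 CPM added and 456 at 3-fold, and the 2303 above somatic groups 1046 at 3-fold. Cells of up to 3000 genes and barcodes ending in 2 gave no value for mitotic cells, nor barcodes ending in 1 for oocytes, since fewer than 50 cells were left. No paired analysis was possible because the libraries share no replicate within a group and no test was made.

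Depth limits SYCE2 and HORMAD2, and SYCP1 in mitotic cells. Counting intervals do not cover the difference between animals, and gates with a minimum of 2 step UMIs rest on few molecules in shallow cells: 290 germ cells were at that minimum. Stage, animal and library cannot be told apart.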
